A study of Mus musculus with 18 samples.

Results

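Class I phosphoinositide 3-kinases (PI3K), the phosphatases that remove phosphates from their lipid product, an adaptor that recruits them and the kinase AKT1 were followed in mouse immune cells before and after a cell wall extract. The members are 9 of the 18194 genes that the array annotation names with a single symbol: Pik3ca, Pik3cd, Pik3cg, Pik3r1, Pik3r5, Pik3ap1, Inpp5d, Inpp4b and Akt1. They were taken by name, as every probe set annotated to one of these symbols, which gave 29 probe sets. Of these, 26 passed a filter on dim values, with at least 1 for each of the 9 genes. Probe sets 1458321_at of Pik3cd, 1442759_at of Akt1 and 1441416_at of Inpp4b did not pass and were not tested.

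Total RNA of 18 samples was hybridised to Affymetrix 3' expression arrays, 6 from time zero controls (0 h), 6 from 1 h and 6 from 4 h after treatment. The design text speaks of knockout mice and of a cell wall extract, but no label gives a genotype, strain, age, sex, cell type, dose or source of the extract, so the samples were compared by time. Each title carries an array code, and there are 3 runs of codes: 12 to 22, 32 to 37, 44 to 54. In each of these code ranges 2 arrays belong to every time, and what the ranges stand for is not given. Nothing in the labels says that samples came from separate animals or cultures, so a p-value here reflects only how these samples vary, and that spread may be technical.

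Class I PI3K phosphorylates the membrane lipid PIP2 to PIP3, which recruits proteins with pleckstrin homology domains, among them AKT, BTK and the exchange factors of small GTPases. The catalytic subunits p110 alpha, p110 delta (together with regulatory subunits of the p85 family) and p110 gamma (with p101 or p84) are used by different receptors, and p110 delta and p110 gamma are enriched in white blood cells. SHIP1, encoded by Inpp5d, removes the 5-phosphate of PIP3 in blood cells, INPP4B removes the 4-phosphate of the resulting PI(3,4)P2, and in macrophages this pathway is known for tuning the response to Toll-like receptor ligands.

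The promoters of the 3 members whose level changed with time in the tests below are shown so that their sequence can be read beside the values. They come from RefSeq on GRCm38.p6, run from 250 bases before to 50 bases after the annotated start, 300 bases in all, and are written 5′ to 3′ on the strand of the gene. Capitals mark GAGGAA on either strand, the core letters bound by PU.1, a transcription factor of myeloid and B cells. The Inpp5d window is chr1:87620062-87620361 on the plus strand, the Pik3r5 window is chr11:68431875-68432174 on the plus strand and the Pik3ap1 window is chr19:41385053-41385352 on the minus strand.
Inpp5d: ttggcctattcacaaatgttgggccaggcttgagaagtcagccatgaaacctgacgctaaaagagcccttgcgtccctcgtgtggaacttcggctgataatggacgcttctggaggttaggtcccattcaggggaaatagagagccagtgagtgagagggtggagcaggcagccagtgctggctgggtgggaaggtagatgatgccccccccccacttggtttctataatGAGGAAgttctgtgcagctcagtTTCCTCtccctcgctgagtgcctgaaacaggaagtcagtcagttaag
Pik3r5: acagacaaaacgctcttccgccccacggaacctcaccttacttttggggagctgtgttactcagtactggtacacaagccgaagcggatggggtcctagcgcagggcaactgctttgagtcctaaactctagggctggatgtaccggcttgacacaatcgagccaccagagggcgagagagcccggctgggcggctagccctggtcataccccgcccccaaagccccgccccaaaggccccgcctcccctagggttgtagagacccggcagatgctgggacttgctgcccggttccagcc
Pik3ap1: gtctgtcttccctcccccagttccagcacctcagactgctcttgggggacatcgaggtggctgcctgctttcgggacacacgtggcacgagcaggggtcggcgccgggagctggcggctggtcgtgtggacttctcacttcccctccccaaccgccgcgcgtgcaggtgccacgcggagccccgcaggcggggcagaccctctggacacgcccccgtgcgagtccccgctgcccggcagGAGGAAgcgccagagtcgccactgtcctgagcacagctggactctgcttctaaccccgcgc

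The Inpp5d window holds GAGGAA with its first base at -20 from the start on the strand of the gene, and its reverse complement with its first base at 4. The Pik3ap1 window holds it at -11, and the Pik3r5 window does not hold these letters. Of 32851 RefSeq promoter windows of 300 bases, 28.3% held the motif on either strand, and of the 14 windows of the 9 members 5 held it, for Inpp5d, Pik3ap1, Pik3cg (2 overlapping windows) and Inpp4b. The 10-base kB motif (both strands, 8.46% of all windows) was found in 1 window each of Pik3cd and Pik3r1, and the AP-1 site TGANTCA (both strands, 7.81%) in the window of Pik3ca. A match is a string of letters and not a binding site.

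The values are signals on a linear scale, and changes were computed as log2(signal + 16), so that the changes of dim probe sets come out too small. A gene is given by its representative, the brightest of its tested probe sets on average. For members, other probe sets are given where their call differs. For all other genes named below, only the representative was read. On 2 arrays, t1h replicate 3 (code 36) and t4h replicate 2 (code 37), the control probe sets for the 3' and 5' ends of Gapdh and Actb stood apart. Their 3'/5' signal ratio was 1.28 and 1.51 for Gapdh, against 0.681 to 0.832 on the other 16 arrays, and 2.44 and 1.98 for Actb, against 1.20 to 1.56. Of the 17 tested member probe sets that are not representatives, 6 lay lower against their representative on both of these arrays than on any of the other 16, for Inpp5d, Pik3cd, Pik3r1 (2 probe sets), Pik3ap1 and Akt1. For example, the other Inpp5d probe set stood at a log2 difference of -2.87 and -2.36 on them, against -2.27 to -1.20 on the rest. Where the probes lie along the transcripts was not examined, and calls below that are gained or lost without these 2 arrays are given both ways.

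**Figure D1:**
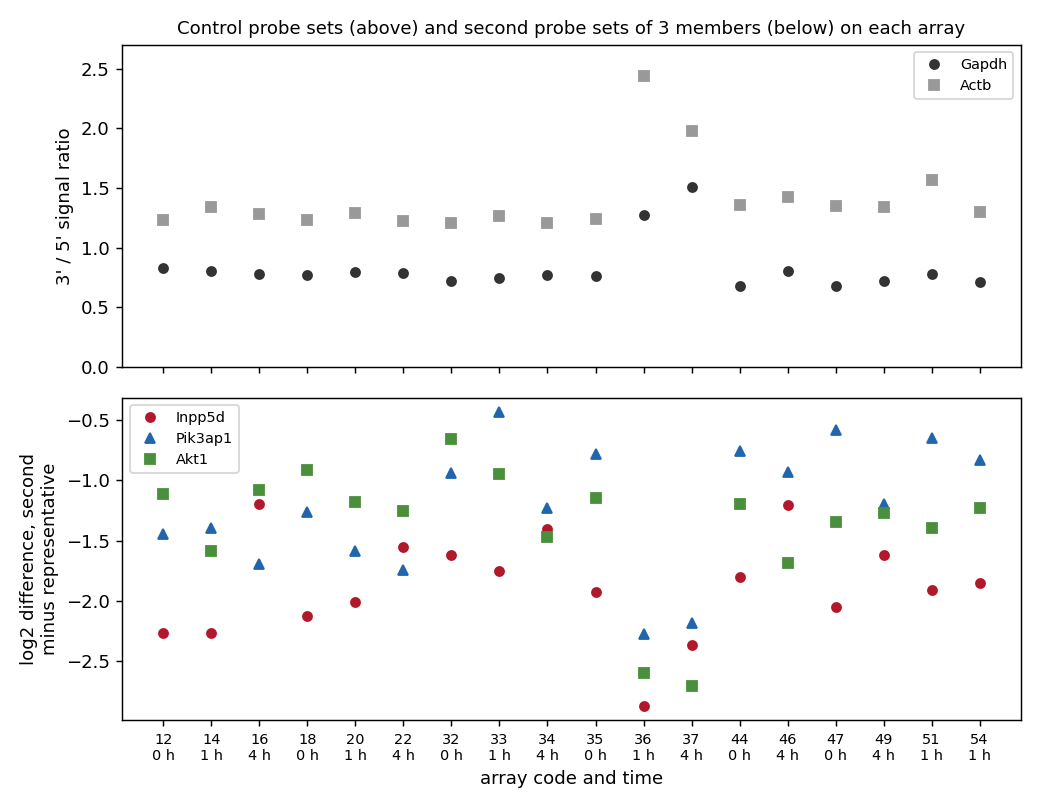
The upper plot gives the 3'/5' signal ratio of the Gapdh and Actb control probe sets on each array, ordered by array code with its time, and the lower plot the log2(signal + 16) of another probe set minus that of the representative for Inpp5d, Pik3ap1 and Akt1 (Akt1: 1425711_a_at). Codes 36 and 37 have the highest control ratios and the lowest differences for all 3 genes.

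A marker or list gene is called measured where it has a probe set past the filter on dim values. Of 14 macrophage markers 13 were measured, with a summed signal of 170296 to 238402 over all arrays, and the remaining name, Emr1, is an older symbol of Adgre1, which is among the 13. Of the neutrophil list 7 of 12 markers were measured, S100a8, S100a9, Camp, Ltf, Ngp, Csf3r and Mmp8, and Ly6g and Mpo were among those that were not. Of the B cell list 3 of 8 were measured, Cd79b, Ighm and Cd22, and Ms4a1, Cd79a and Pax5 were among those that were not. Cd3d, Cd3e and Cd3g of the T cell list were not measured. Of the T cell list 3 of 12 markers were measured, of the NK cell list 1 of 8 and of the erythroid list 2 of 8. The T cell markers measured, Cd8a, Cd28 and Il7r, summed to 4821 to 6449 at 0 h, 4683 to 6287 at 1 h and 2609 to 11252 at 4 h. Which cells this signal came from was not tested. Over all tested probe sets the median log2 change from 0 h was -0.04 at 1 h and -0.22 at 4 h, and that from 1 h to 4 h was -0.17. Of the 8532 probe sets past the threshold at 4 h against 0 h in the deposited scaling, 30% were higher. Quantile normalization called 7057, of which 45% were higher, and centring each array on its median called 7074, of which 59.1% were higher. Between 1 h and 4 h the share higher among the probe sets called in each scaling was 31.6%, 47.1% and 62.6%. The directions given below for called members held under each of these scalings.

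The first question is which members had changed 1 h and 4 h after the extract. At 1 h no member passed the threshold, an adjusted p of 0.05 by limma over all 25804 tested probe sets, where 0.648% of all genes did. Without adjustment 1 of the 9 passed, Pik3r5, as did 1765 of the 25804 tested probe sets. At 4 h against 0 h, 3 of 9 members had changed by limma: Pik3r5, a regulatory subunit, and Pik3ap1, the adaptor, rose, and Inpp5d, the phosphatase SHIP1, fell. The background is high, as 35.4% of all genes were called in this comparison, 11.5% higher and 23.9% lower, so the count of members is no more than genes at large gave. The median log2 change was 0.13 over the members and -0.19 over all representatives.

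Between 1 h and 4 h, 3 of 9 were called, again Pik3r5, Pik3ap1 and Inpp5d, against 27.9% of all genes. Both comparisons share the 6 arrays of 4 h, so they are not separate tests of the late level. By probe set, 7 of the 26 were called at 4 h against 0 h, against 33.1% of all probe sets. For 5 of the 26 the arrays of 0 h and 4 h did not overlap, against 16.9% of all probe sets. The arrays hold RNA of many cells, and fewer cells of a type and less RNA per cell cannot be told apart.

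**Figure D2:**
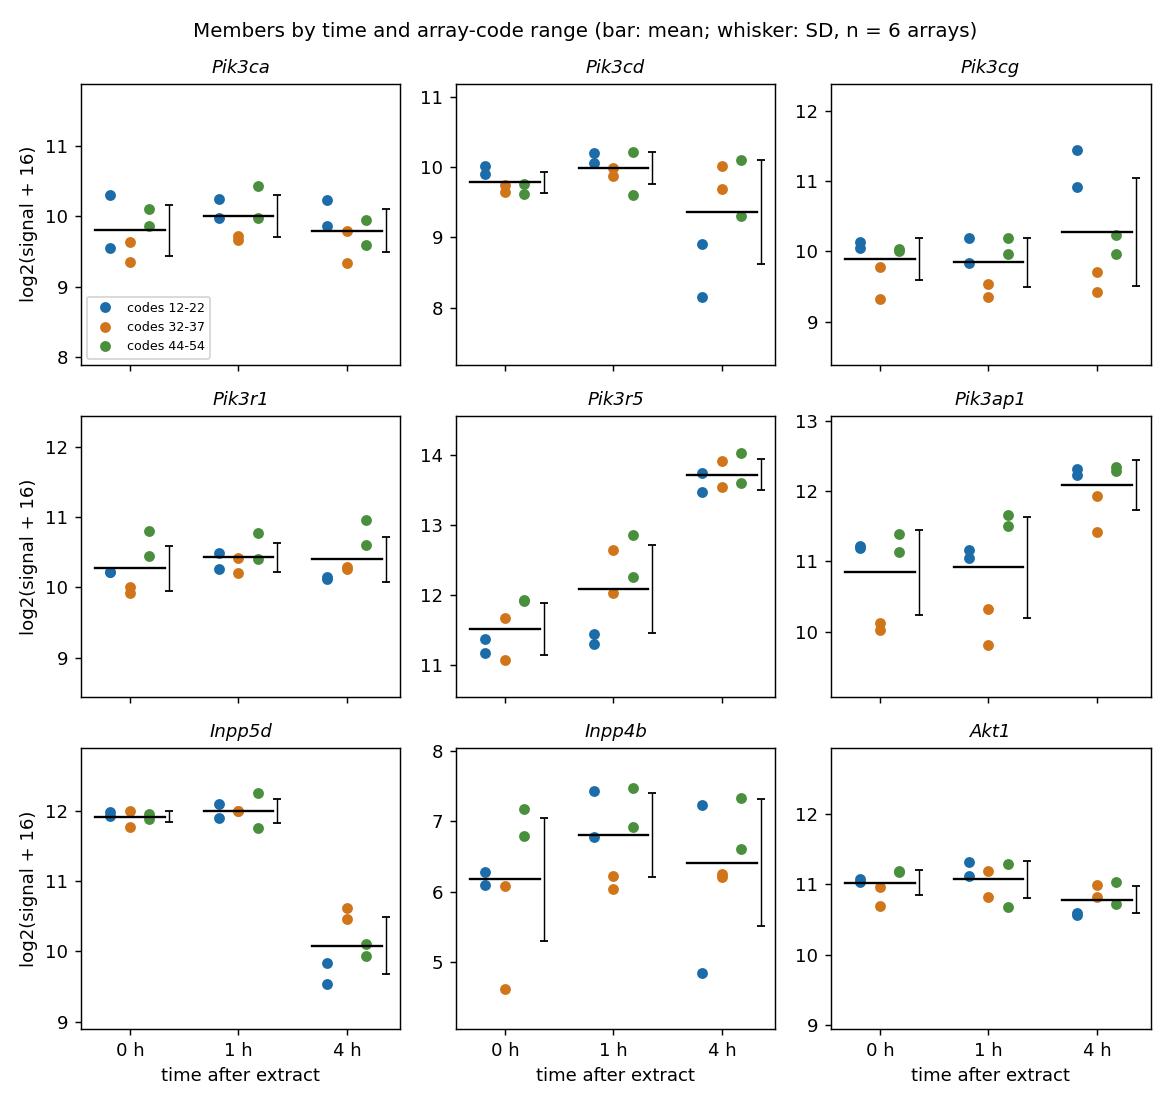
Each panel gives the log2(signal + 16) of the representative probe set of a member on the 18 arrays by time, coloured by array-code range, with the mean (bar) and SD (whisker) of the 6 arrays of a time. At 4 h all arrays lie below 0 h for Inpp5d and above it for Pik3r5 and Pik3ap1, and the vertical position differs between panels, which share no axis.

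Among the catalytic subunits, Pik3ca encodes p110 alpha, which is expressed in most tissues (chr3:32397065-32466112, GRCm38.p6). Its signal was 635 to 1247 at 0 h (median 846), 797 to 1368 at 1 h (median 989.9) and 631 to 1188 at 4 h (median 891). These ranges lay over each other, and the log2 change at 4 h was -0.01 ± 0.19 (SE; limma, adjusted p = 0.985). None of its 6 tested probe sets passed, with changes from -0.57 ± 0.33 to 0.31 ± 0.15 and adjusted p down to 0.119. The probe set 1429435_x_at is of a kind whose probes can also match other transcripts.

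Pik3cd encodes p110 delta, the catalytic subunit of lymphocytes and myeloid cells (chr4:149649168-149702566). Its representative had signals of 771 to 1020.3 at 0 h (median 846), 760.4 to 1171 at 1 h (median 1027) and 269 to 1079.8 at 4 h (median 713). At 4 h the arrays spread widely and overlapped those of 0 h, and the log2 change was -0.42 ± 0.25 (limma, adjusted p = 0.22). The 5 tested probe sets did not give a single answer. Probe sets 1422991_at and 1422992_s_at fell by 1.25 ± 0.38 (limma, adjusted p = 0.0177) and 1.10 ± 0.38 (adjusted p = 0.0327), both with overlapping arrays, while 1443798_at stood at 0.16 ± 0.32 (adjusted p = 0.742). At 4 h 1422991_at lay above its array's median on 2 of 6 arrays (signal 8.08 to 146), so the size of its fall depends on the pseudocount. Without the 2 arrays of high control ratio, 1422991_at kept its call (-1.07, limma adjusted p = 0.0422) and 1422992_s_at lost it (-0.91, adjusted p = 0.0714). On code 37, an array of 4 h, both lay lower against the representative than on any of the 16 arrays of usual control ratio. From 1 h to 4 h the representative stood at -0.63 ± 0.25 (limma, adjusted p = 0.0814), and it passed when t4h replicate 3 or t4h replicate 4 was left out. In that comparison 1422991_at fell by 1.18 ± 0.38 (limma, adjusted p = 0.0312), a call lost without the 2 arrays of high control ratio (-1.12, adjusted p = 0.0535).

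Pik3cg encodes p110 gamma, which acts downstream of G protein-coupled receptors in leukocytes (chr12:32173397-32208677). Its signal was 623 to 1101 at 0 h (median 1019.6), 637 to 1151 at 1 h (median 937) and 667 to 2774 at 4 h (median 1081). The high values at 4 h were those of codes 12 to 22, at 1909 and 2774, and the other 4 arrays lay between 667 and 1185. The log2 change at 4 h was 0.39 ± 0.28 (limma, adjusted p = 0.302), and that of the other probe set 0.48 ± 0.27 (adjusted p = 0.185). Blocked by code range, the other probe set passed (limma, adjusted p = 0.0248) and the representative did not (adjusted p = 0.105).

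Of the regulatory subunits, Pik3r1 encodes p85 alpha, which stabilises the class IA catalytic subunits and binds phosphorylated tyrosines (chr13:101680761-101768217). Its signal was 956 to 1775 at 0 h (median 1171), 1166 to 1730.1 at 1 h (median 1343) and 1096 to 1966 at 4 h (median 1223). The times overlapped, with a log2 change at 4 h of 0.13 ± 0.17 (limma, adjusted p = 0.599), and none of the 4 tested probe sets passed (adjusted p from 0.599 to 0.827). From 1 h to 4 h, 1451737_at stood at -0.20 ± 0.39 (limma, adjusted p = 0.753), or -0.55 without the 2 arrays of high control ratio (adjusted p = 0.0335).

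Pik3r5 encodes p101, the partner of p110 gamma that couples it to G protein beta gamma subunits (chr11:68432125-68497849). Its signal was 2139.8 to 3898 at 0 h (median 2940.2), 2505 to 7388 at 1 h (median 4522) and 11316 to 16675 at 4 h (median 12985). Every array of 4 h lay above every array of 0 h and of 1 h, while those of 0 h and 1 h overlapped. The log2 change was 0.57 ± 0.24 at 1 h (limma, adjusted p = 0.626) and 2.19 ± 0.24 at 4 h (4.56-fold; adjusted p = 3.45e-06). From 1 h to 4 h it was 1.62 ± 0.24 (limma, adjusted p = 0.000113). At 1 h the arrays of codes 12 to 22 stood at 2505 and 2784 and those of codes 44 to 54 at 4868 and 7388. Pik3r5 has a single probe set, so no other probe set bears on its value.

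Pik3ap1 encodes BCAP, a cytoplasmic adaptor that links Toll-like receptors and the B cell receptor to PI3K (chr19:41272541-41385102). Its signal was 1023 to 2662 at 0 h (median 2275), 878 to 3223 at 1 h (median 2188) and 2717 to 5152 at 4 h (median 4889.8). The arrays of 4 h lay above all of 0 h but overlapped those of 1 h. The log2 change was 0.07 ± 0.32 at 1 h (limma, adjusted p = 1), 1.24 ± 0.32 at 4 h (2.36-fold; adjusted p = 0.00578). From 1 h to 4 h it was 1.17 ± 0.32 (limma, adjusted p = 0.0113). The other probe set, 1421285_at, gave 0.70 ± 0.44 at 4 h and did not pass (limma, adjusted p = 0.235). It passed with the code range as a block (adjusted p = 0.0257) and without the 2 arrays of high control ratio (0.97, adjusted p = 0.0357). From 1 h to 4 h, 1421285_at passed with the code range as a block (0.87; limma, adjusted p = 0.0103). In that comparison it did not pass without the 2 arrays (0.80, adjusted p = 0.116) or within any code range (adjusted p from 0.0962 to 0.632).

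Inpp5d encodes SHIP1, the 5-phosphatase that turns PIP3 into PI(3,4)P2 in blood cells (chr1:87620312-87720510). Its signal was 3471 to 4059.8 at 0 h (median 3934), 3434 to 4850.3 at 1 h (median 4075) and 728 to 1559 at 4 h (median 1025). Every array of 4 h lay below every array of the earlier times, and 0 h and 1 h overlapped. The log2 change was 0.08 ± 0.16 at 1 h (limma, adjusted p = 1). At 4 h it was -1.84 ± 0.16 against 0 h (3.57-fold lower; adjusted p = 1.97e-07) and -1.91 ± 0.16 against 1 h (adjusted p = 2.52e-07). The other probe set, 1424195_a_at, also fell, from 822 to 1127 at 0 h to 289.7 to 516 at 4 h, by 1.43 ± 0.20 on the log2 scale (limma, adjusted p = 2.77e-05). Without the 2 arrays of high control ratio the changes were -1.94 and -1.37.

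The summed signal of the 3 measured B cell markers, of 8 listed, was 403 to 1844 at 0 h, 325 to 1842 at 1 h and 183 to 794 at 4 h, and that of the 13 macrophage markers 170296 to 200054, 176080 to 238402 and 178764 to 214211. SHIP1 is made in both cell types, and the part of the B cell markers in the fall of Inpp5d was not tested. The 3 measured dendritic cell markers of 10 summed to 134 to 306 at 0 h and 425 to 697 at 4 h, and their part in the rises was not tested.

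Inpp4b, the 4-phosphatase of PI(3,4)P2 (chr8:81342266-82134312), was dim, with a signal of 8.48 to 129 at 0 h (median 57.0), 49.5 to 162 at 1 h (median 99.0) and 12.8 to 144 at 4 h (median 70.7). The times overlapped, and the log2 change at 4 h was 0.24 ± 0.43 (limma, adjusted p = 0.712), a change smaller than its error.

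Akt1 encodes the serine/threonine kinase recruited by PIP3 (chr12:112653821-112674884). The signal of its representative was 1641 to 2309 at 0 h (median 2111), 1626 to 2534 at 1 h (median 2266) and 1495 to 2071 at 4 h (median 1729). The times overlapped, and the log2 change at 4 h was -0.24 ± 0.14 (limma, adjusted p = 0.2). The probe set 1425711_a_at, which can read several transcripts of the gene, lay at 891 to 1088 at 0 h and 296 to 712 at 4 h without overlap and fell by 0.75 ± 0.23 (adjusted p = 0.0161). Its lowest arrays at 1 h and at 4 h were codes 36 and 37. Without them the change was -0.57 and the adjusted p by limma 0.00107, and that from 1 h to 4 h, -0.37 ± 0.23 with all arrays (adjusted p = 0.25), was -0.39 (adjusted p = 0.0239). The third tested probe set gave -0.58 ± 0.24 (adjusted p = 0.0775), and its adjusted p by limma was 0.0445 when blocked by code range.

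**Figure D3:**
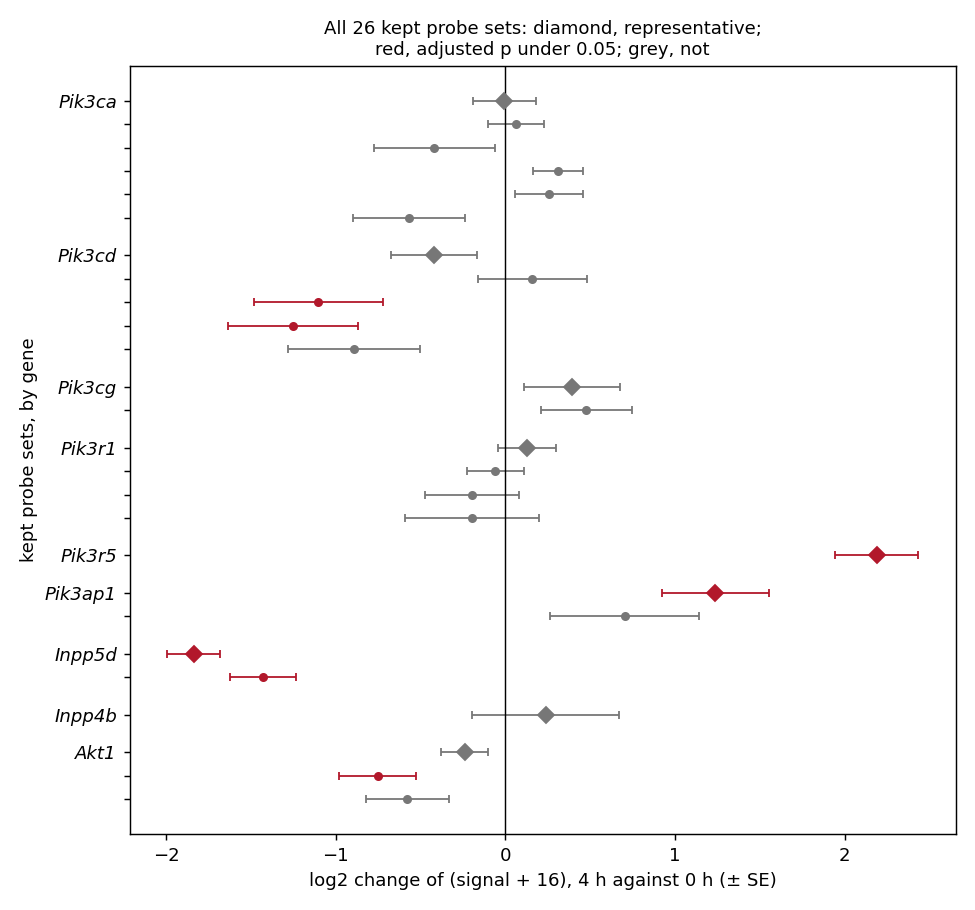
The log2 change of (signal + 16) at 4 h against 0 h, with its SE, is drawn for each of the 26 tested probe sets by gene, the representative as a diamond and probe sets past an adjusted p of 0.05 in red. Probe sets of Inpp5d lie together below 0, those of Pik3ca and Pik3r1 lie around 0, and those of Pik3cd and Akt1 differ in whether they passed.

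A further question is whether the 4 h change was alike in the 3 code ranges. Each range holds 2 arrays of each time, and the spread was shared over the 9 cells of time and range. Inpp5d fell in each range, by 2.27, 1.34 and 1.90 on the log2 scale in codes 12 to 22, 32 to 37 and 44 to 54 (SE 0.20 in each; limma, adjusted p from 1.87e-05 to 0.00103). At 4 h its signal was 728 and 897 in codes 12 to 22, 965 and 1085 (code range 44 to 54), and 1392 and 1559 (codes 32 to 37). Pik3r5 rose in each range, by 2.32, 2.35 and 1.89 ± 0.29 (adjusted p up to 0.00102). Pik3ap1 rose in each, by 1.06, 1.60 and 1.05 ± 0.21 (adjusted p up to 0.00545). Its other probe set passed in none of the ranges, at 0.70, 0.75 and 0.66 ± 0.43 (limma, adjusted p from 0.265 to 0.334), while that of Inpp5d passed in each (adjusted p from 0.0125 to 0.018).

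Pik3cd and Pik3cg passed in codes 12 to 22, where 5260 of the 25804 tested probe sets were called, and not in the other ranges. For Pik3cd the signals of codes 12 to 22 were 935 and 1020.3 at 0 h and 269 and 462 at 4 h, a log2 change of -1.43 ± 0.30 (limma, adjusted p = 0.00572). In codes 32 to 37 and 44 to 54 it was 0.16 and 0.01. For Pik3cg the values were 1.09 ± 0.23 (adjusted p = 0.0061), 0.01 and 0.08, and for its other probe set 1.02 ± 0.18 (adjusted p = 0.00197), 0.37 and 0.05. In codes 12 to 22 probe sets 1422991_at and 1422992_s_at of Pik3cd passed too (limma, adjusted p = 0.0485 and 0.0439), and 1443798_at and 1446770_at did not. The representative of Pik3ca passed in no range. In codes 32 to 37 its probe sets 1429434_at (0.73 ± 0.21) and 1429435_x_at (0.92 ± 0.21) passed (limma, adjusted p = 0.0374 and 0.0125). Its probe set 1440054_at was lower at 4 h in codes 44 to 54 (limma, adjusted p = 0.0396). All 6 arrays of that range lay below their array's median for it (signal 5.18 to 102), so no size is given. The probe set 1425711_a_at of Akt1 passed in no range. The test of the difference itself, an F test over the ranges by limma, called none of the 9 members, with adjusted p = 0.177 for Pik3cd, 0.259 for Pik3cg and 0.32 for Inpp5d, while 1.13% of all genes were called. Without adjustment 3 of the 9 had p under 0.05, as did 2653 of the 25804 tested probe sets. The ranges were therefore not shown to differ in these responses. At 1 h the same test called 0 of 9 members, with none at an unadjusted p under 0.05, and 0% of all genes (919 probe sets of all tested had an unadjusted p under 0.05).

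**Figure D4:**
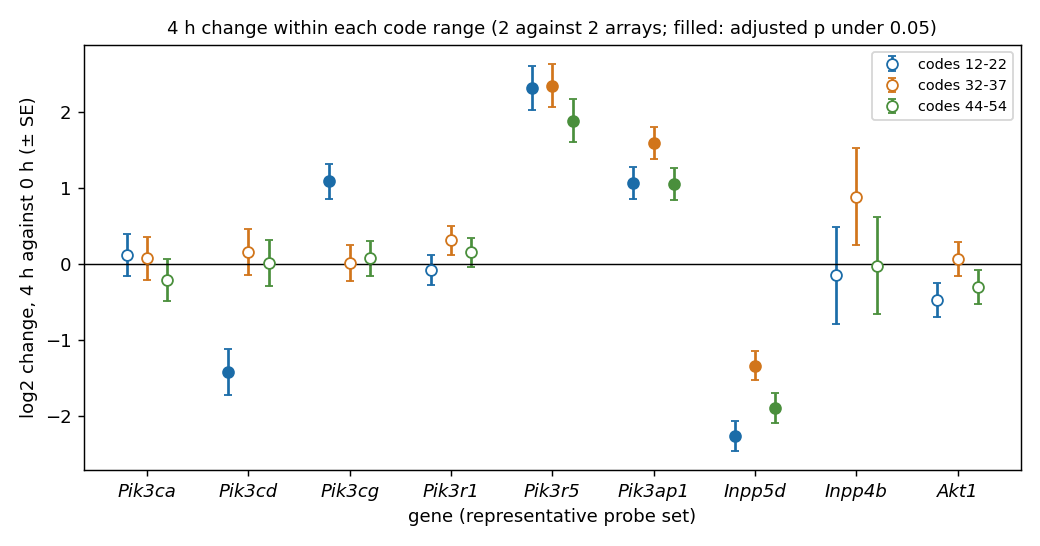
The log2 change of (signal + 16) at 4 h against 0 h within each array-code range is drawn with its SE for the representative of each member, filled where the adjusted p is under 0.05. Inpp5d, Pik3r5 and Pik3ap1 are filled in all 3 ranges, and Pik3cd and Pik3cg in codes 12 to 22.

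The level of several members differed between the ranges after adjustment for time. Both arrays of high control ratio lie in codes 32 to 37, so the values without them are given too. Between codes 32 to 37 and 12 to 22, limma called 3 of 9 members, all lower in 32 to 37, against 20.7% of all genes (8.97% lower). Pik3cg had signals of 891 to 2774 (median 1125) in codes 12 to 22 and 623 to 864 (median 696) in codes 32 to 37 without overlap, a log2 difference of -0.90 ± 0.19 (limma, adjusted p = 0.00398). At each time both arrays of codes 32 to 37 were the lowest of the 6 for Pik3cg, and without the 2 arrays of high control ratio the difference was -0.80 (limma, adjusted p = 0.0176). Its other probe set gave -0.92 ± 0.16 (adjusted p = 0.00105), also without overlap. Against codes 12 to 22, codes 44 to 54 stood at -0.46 ± 0.16 in that probe set (limma, adjusted p = 0.0548), which passed without the 2 arrays (adjusted p = 0.0435).

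Probe sets of Pik3cd and Inpp5d other than the representative also bear on codes 32 to 37 against 12 to 22. The Pik3cd probe set 1443798_at was lower in 32 to 37, by 0.90 ± 0.25 (limma, adjusted p = 0.0214), where the representative stood at 0.29 ± 0.25 (adjusted p = 0.479). Without the 2 arrays of high control ratio 1443798_at stood at -0.78 (limma, adjusted p = 0.0731), while 1422992_s_at, at 0.50 ± 0.35 with all arrays, stood at 1.01 and passed (adjusted p = 0.03). The probe sets of Pik3cd thus gave opposite signs. The other Inpp5d probe set stood at 0.17 ± 0.19 with all arrays (limma, adjusted p = 0.579) and at 0.47 without the 2 (adjusted p = 0.0233).

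Pik3ap1 was likewise lowest on both arrays of codes 32 to 37 at each time, and its log2 difference from codes 12 to 22 was -0.92 ± 0.14 (limma, adjusted p = 0.000497), or -0.95 without the 2 arrays of high control ratio (adjusted p = 0.00206). Its other probe set gave -0.71 ± 0.24 (limma, adjusted p = 0.0497), and -0.31 without the 2 arrays, where the call was lost (adjusted p = 0.185). Codes 44 to 54 lay above 32 to 37 by 1.12 ± 0.14 (adjusted p = 7.34e-05), and by 1.60 ± 0.24 in the other probe set (adjusted p = 0.000255), or 1.19 without the 2 arrays of high control ratio. Pik3ca was lower in 32 to 37 than in 12 to 22 by the representative alone, with signals of 631 to 868 against 734 to 1247 and a log2 difference of -0.45 ± 0.15 (limma, adjusted p = 0.0477). That call was lost in 17 of 26 alternative settings, 13 of which left out a single array, and without the 2 arrays of high control ratio the difference was -0.40 (adjusted p = 0.116).

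Between codes 44 to 54 and 12 to 22, 2 of 9 members were called, both higher in 44 to 54, against 22.3% of all genes (11% higher). Pik3r1 had signals of 1335 to 1966 against 1096 to 1425, a log2 difference of 0.42 ± 0.12 (limma, adjusted p = 0.0173), a call that 3 of 26 alternative settings ended. Of its other probe sets, 1425514_at and 1451737_at stood at -0.08 each, and 1425515_at at 0.56 ± 0.22 (limma, adjusted p = 0.0868), which passed without the 2 arrays (adjusted p = 0.0167). Pik3r5 differed by 0.68 ± 0.19 (adjusted p = 0.019), a call that was lost without t1h replicate 5 (adjusted p = 0.0517). Pik3ap1 was not called by its representative (0.19 ± 0.14; limma, adjusted p = 0.384), but its other probe set was higher in 44 to 54 by 0.89 ± 0.24 (adjusted p = 0.0157), and the mean of its probe sets passed (0.54, adjusted p = 0.0261). Between codes 44 to 54 and 32 to 37, 3 of 9 were called, all higher in 44 to 54, against 20.8% of all genes (9.46% higher): Pik3ap1, Pik3r1 by 0.48 ± 0.12 (adjusted p = 0.0088) and Inpp4b (adjusted p = 0.0346). For Pik3r1, 1425515_at was higher by 0.72 ± 0.22 (limma, adjusted p = 0.0332), a call lost without the 2 arrays (0.38, adjusted p = 0.149). The signals of Inpp4b were 81.1 to 162 against 8.48 to 60.3 without overlap. All 6 arrays of 32 to 37 lay below their array's median signal, and 5 of the 6 of 44 to 54 above it, so that Inpp4b passed the filter on dim values through ranges where it is higher, and the size of its difference, 1.15 ± 0.35, depends on the pseudocount. Its call was lost in 11 of 25 alternative settings, and without the 2 arrays of high control ratio the difference was 1.25 (limma, adjusted p = 0.054). These 3 comparisons share their arrays in pairs, and no count of members in them is read as particular to the members.

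Markers of other cell types moved with the ranges. The summed signal of the 8 stromal markers, all measured, was 2733 to 4062 in codes 12 to 22, 5136 to 10836 in 32 to 37 and 21894 to 31130 in 44 to 54. That of the 7 measured neutrophil markers, of 12, was 3818 to 6429, 1859 to 4100 and 1222 to 2646, and that of the 3 B cell markers 772 to 1844, 302 to 579.9 and 183 to 422. The macrophage sum was 170296 to 214211, 178764 to 238402 and 188049 to 212368. The part of these cells in the range differences of the members was not tested.

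Further genes of the phosphoinositide pathway were read from 6 lists. At 1 h limma called no gene in any of them. An unadjusted p under 0.05 was met by 0 to 3 genes of each list and by 1765 of all 25804 tested probe sets. At 4 h against 0 h, the other PI3K subunits had 1 of 7 measured genes higher and 3 lower. Pik3r6, which encodes p84, the alternative partner of p110 gamma, rose by 1.13 ± 0.24 (limma, adjusted p = 0.00141) from a signal of 483 to 868 at 0 h to 1002 to 2302 at 4 h. Pik3r2, which encodes p85 beta, fell by 1.03 ± 0.15, Pik3c3, the class III kinase VPS34 of endosomes and autophagy, by 1.01 ± 0.11, and its regulatory partner Pik3r4 by 0.55 ± 0.11.

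Of the other phosphoinositide phosphatases, 2 of 21 rose and 9 fell, with a median log2 change of -0.30 against -0.19 over all representatives. Mtmr14, a phosphatase of the myotubularin family, rose by 1.40 ± 0.21 and Inpp5b, a 5-phosphatase, by 1.23 ± 0.14. Synj2, a synaptojanin, fell by 1.12 ± 0.19, and Inpp1, which acts on soluble inositol phosphates, by 1.08 ± 0.22. The list of phosphoinositide kinases also holds kinases of soluble inositol phosphates, such as Itpkb. Of its 14 measured genes 2 rose, Itpkb (0.98 ± 0.22) and Pip5k1a (0.70 ± 0.16), and 2 fell, Pip4k2a (-0.86 ± 0.15) and Ipmk (-0.37 ± 0.13).

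Among the adaptors and receptors upstream of PI3K, 4 of 17 rose and 4 fell. Rasgrp1, a Ras activator, had a signal of 2.70 to 44.4 at 0 h and 143 to 1018 at 4 h and rose (limma, adjusted p = 6.73e-06). Its arrays of 0 h and 1 h all lay below their array's median, so it passed the filter through the arrays of 4 h, and no size of change is given. Syk, the tyrosine kinase of immune receptors, went from 1949.7 to 3437 to 8341 to 10411 and rose by 1.82 ± 0.18 (adjusted p = 9.7e-07). The insulin receptor substrate Irs2 rose (limma, adjusted p = 0.0141), with overlapping arrays of 0 h and 4 h. It lay above its array's median on 1 of 6 arrays at 0 h, 0 of 6 at 1 h and 4 of 6 at 4 h. It thus passed the filter mainly through the arrays of 4 h, and no size is given. The docking protein Gab3 fell, to 4.90 to 48.4 at 4 h, below the median of each array, so no size is given for it either. Of AKT kinases and their regulators, 2 of 12 rose, Rictor (0.61 ± 0.21), a subunit of mTORC2, and Hsp90aa1 (0.39 ± 0.12), and none fell.

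The targets and branches downstream of PIP3 had 4 of 43 higher and 16 lower, with a median of -0.33. Sesn1, a sestrin and known FOXO target, went from 1819.9 to 6541 at 0 h to 205 to 790.2 at 4 h, a log2 change of -3.22 ± 0.43 (limma, adjusted p = 2.35e-05). Dapp1, a PIP3-binding adaptor, fell by 1.74 ± 0.22, the transcription factor Klf2 by 1.56 ± 0.27 and Foxo4, a forkhead factor that AKT inhibits, by 1.50 ± 0.25. At 4 h Foxo4 lay above its array's median on 3 of 6 arrays (signal 31.7 to 129), so the size of its fall depends on the pseudocount. Irs2 stands in this list and in the upstream list. The list counts were made in the deposited scaling and stand beside the background of 11.5% of all genes higher and 23.9% lower. The test of the 4 h response between code ranges called 1 of these 43 genes, Vav1 (limma, adjusted p = 0.0438), and none in the other lists. Of all genes 1.13% were called, so this count is not read as particular to the lists.

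**Figure D5:**
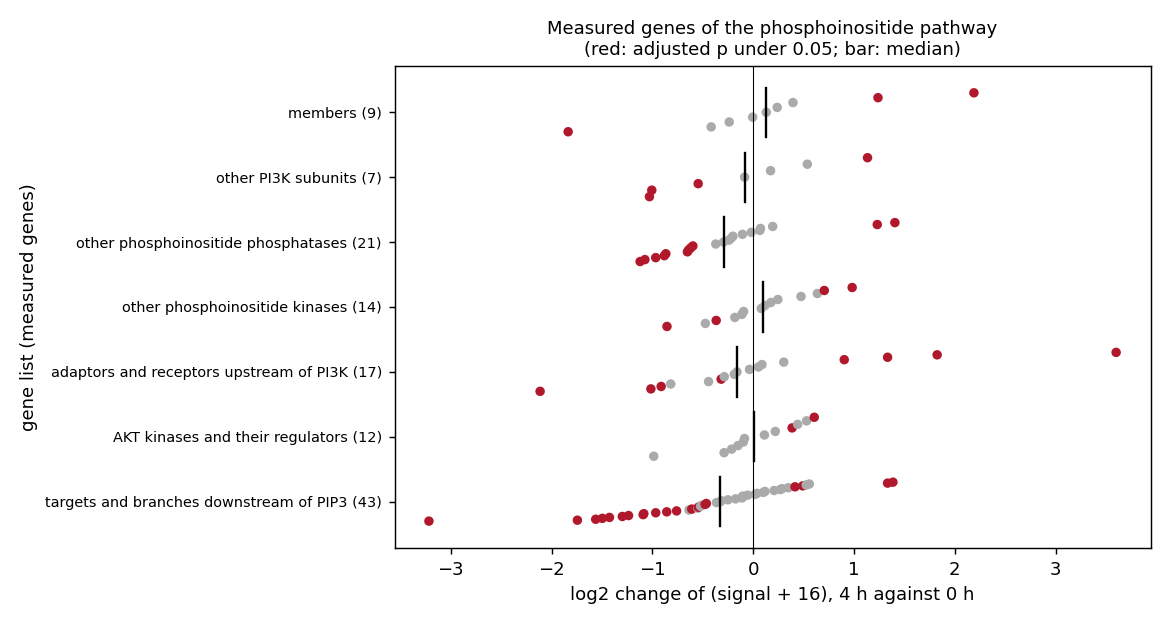
The log2 change of (signal + 16) at 4 h against 0 h is drawn for the representative of each measured gene by list, in red where the adjusted p is under 0.05, with the list's median as a bar. The downstream list has its median at -0.33 and 16 of its 43 genes past the threshold below 0, and the members lie on both sides of 0.

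Single genes of the pathway lists also differed between code ranges. The lists, in the order above, hold 7, 21, 14, 17, 12 and 43 measured genes. Between codes 32 to 37 and 12 to 22, limma called 2, 4, 1, 3, 1 and 14 of them, against 20.7% of all genes. Codes 44 to 54 against 12 to 22 gave 1, 2, 2, 5, 3 and 6, against 22.3%. Codes 44 to 54 against 32 to 37 gave 0, 1, 1, 3, 5 and 10, against 20.8%. No count is read as particular to the lists. Against codes 12 to 22, the docking protein Gab1 was higher by 2.54 ± 0.24 in 32 to 37 (limma, adjusted p = 6.59e-06) and by 1.61 ± 0.24 in 44 to 54. Irs1 was higher by 1.10 ± 0.22 and 1.88 ± 0.22. In codes 12 to 22 Irs1 lay above its array's median on 2 of 6 arrays (signal 37.5 to 106), so these sizes depend on the pseudocount. Trib2, a pseudokinase that binds AKT, was higher in 44 to 54 (limma, adjusted p = 4.24e-05) and below the median of each array in 12 to 22. Trib3 was lower in 44 to 54 by 1.43 ± 0.24 on the log2 scale, and the translation repressor Eif4ebp1 by 1.00 ± 0.12. Gab1 was lower in 44 to 54 than in 32 to 37, by 0.93 ± 0.24 (limma, adjusted p = 0.014). The part of the stromal markers in these differences was not tested.

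Over the 18 arrays, the genes whose log2 values were most like those of Inpp5d by Pearson's r were Arhgap45 (0.989), Rere (0.979), Gabpb2 (0.978), Fads1 (0.977) and Sft2d2 (0.976). Each fell at 4 h, by 2.61, 1.96, 0.89, 1.17 and 1.18 on the log2 scale (limma, adjusted p up to 1.17e-05). The arrays share the 3 times, so these values describe a common fall. With the mean of each time removed, the log2 values of Inpp5d and Pik3cd had r = 0.79 and those of Inpp5d and Pik3cg r = -0.71 over the 18 arrays, the highest and the lowest of the member pairs, singled out after their values were seen. The arrays share their code ranges, and the 4 h arrays of codes 12 to 22 were lowest for Inpp5d and Pik3cd and highest for Pik3cg.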

How the data were processed

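Total RNA of 18 samples was measured on Affymetrix 3' arrays. The deposited table gives 1 signal intensity per probe set and array on a linear scale, made with MAS5 and GCOS (Affymetrix software, no version given) per the submitters' processing notes. The trimmed mean of the 2nd to 98th percentile was 499.8 on every array, a common scaling that a broad change of signal can shift. All columns were used. Intensities were taken as log2(signal + 16). Probe sets above their array's median on at least 4 of 18 arrays were kept (25804 of 45101, 57.3%, for 11733 genes). R 4.3.3 and limma 3.58.1 (lmFit and eBayes) fitted the 18 arrays together by time, or by time and code range, with Benjamini-Hochberg adjustment over all kept probe sets. "Rose", "fell" and "called" refer to an adjusted p under 0.05. The fit was tested on simulated data.

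Samples were grouped by the time in their titles, and replicate numbers follow accession order and pair nothing. The log2 correlation of arrays of a time was 0.918 to 0.970. Probe sets were named from the platform annotation: 34945 carry 1 symbol (34741 matched to RefSeq on GRCm38.p6, also used for loci and promoters), 932 several, 9160 none, and 64 are controls. Named genes are the 9 members, for each list up to 4 called genes of largest change at 4 h against 0 h and up to 2 in each other comparison, and the 5 genes most like Inpp5d. Of other list genes only counts are given. The members, lists and markers were chosen with earlier results of these data known. Alternatives changed the pseudocount, filter, scaling, representative, block and samples. Further genes of the series title are not analysed here. The number of arrays limits the precision.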

Additional observations from a re-analysis of the deposited data

Results flagged for a closer look

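Of 60 groups of 6 arrays examined, 6 held an array whose gap to its nearest neighbour was large for the range of the group (Dixon's criterion at 95%, which chance meets in about 1 in 20 groups). The signal of Inpp4b on t0 replicate 3 was 8.48, the lowest of codes 32 to 37, where the next lowest was 49.5. The signal of Pik3r1 on t1h replicate 6 was 1425.4, the highest of codes 12 to 22, where the next was 1208. The other 4 are control ratios: the Gapdh 3'/5' ratio was 1.28 on t1h replicate 3 (next at 1 h 0.802) and 1.51 on t4h replicate 2 (next at 4 h 0.809). The Actb ratio was 2.44 on t1h replicate 3 (next 1.56) and 1.98 on t4h replicate 2 (next 1.43).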

How the results depend on the processing

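The falls of Inpp5d and the rises of Pik3r5 and Pik3ap1 at 4 h kept their direction and call in all 30 alternatives, with log2 changes against 0 h of -2.27 to -1.34, 1.89 to 2.43 and 0.97 to 1.60. Of the 54 member values over 6 comparisons, 41 gained and lost no call in any alternative, and the 19 that changed sign in some alternative were not called there. With the mean of all kept probe sets of a gene, 5 members were called at 4 h against 0 h in place of 3. Pik3cd and Akt1 were added, and the share of all genes called in that setting was not computed. Within codes 12 to 22, where 5260 of 25804 probe sets were called, called members also numbered 5, with Pik3cd and Pik3cg added. Between 1 h and 4 h, 4707 probe sets were called within codes 12 to 22, and called members numbered 5. In codes 44 to 54 against 12 to 22 they numbered 1 in place of 2 with no filter and with arrays centred on their median, both without Pik3r1. Leaving out single arrays gave 0 called members at 1 h, 3 at 4 h against 0 h, 3 to 4 between 1 h and 4 h, 2 to 3, 1 to 2 and 2 to 4 between the ranges in the order given above, and 0 for the responses between ranges. Leaving out both arrays of high control ratio, chosen after seeing the data, gave 3 and 3 members at 4 h and 2 in place of 3 for codes 32 to 37 against 12 to 22 and for 44 to 54 against 32 to 37. Called probe sets at 1 h numbered 194, and 339 with the code range as a block, 0 within codes 12 to 22 (920 at an unadjusted p under 0.05, limma), 107 without both arrays and 108 to 418 without single arrays (lowest without t1h replicate 2, highest without t1h replicate 6). At 4 h against 0 h they numbered 8532, and 5260, 3908 and 4731 within the ranges, where 2 arrays stand against 2, and between 1 h and 4 h 6286, and 2441 and 2914 within codes 32 to 37 and 44 to 54. The 4 h response between ranges called 216, 326 with pseudocount 64, 57 with no filter, 369 above the median on all arrays, 94 without both arrays and 40 to 209 without single arrays (lowest without t0 replicate 5). That at 1 h called 0, and at most 25 in any alternative (without t1h replicate 5). The cause of these shifts was not tested. Dim probe sets, such as that of Inpp4b and the 3 member probe sets that were not tested, give little information on change. No paired analysis was possible because the labels give no replicate numbers and do not say that the order of array codes pairs samples; the code range was used as a block.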
